A study of Mus musculus with 3 samples.

Results

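Beta cells of wild-type mouse islets are described here from 1 single-cell library of mice 9 months old. Cells were chosen by their UMI counts, the insulin share above all. A WT barcode was counted as a beta cell when it had at least 500 genes, at least 1000 unique molecular identifiers (UMIs, which count RNA molecules) and at most 20% of UMIs in mitochondrially encoded genes. Its Ins1 and Ins2 UMIs had to make at least 25% of the total, with Gcg, Sst and Ppy each under 2%. By this rule 4791 cells were beta cells, of 10266 WT barcodes and of 36681 barcodes in all 3 libraries. They made 51.6% (50.6 to 52.6%) of the 9288 WT barcodes past the quality limits. All intervals are exact 95% intervals and cover counting error only.

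The study profiled islet cells of ASF-KO, SC35-KO and WT mice, all 9 months old, with 1 library per genotype; ASF and SC35 are older names of the splicing factors SRSF1 and SRSF2. Islets were freed with collagenase P, hand-picked, broken up into single cells with trypsin and sieved, and the RNA was tagged at its 3' end with a droplet kit. The labels give neither the number of mice behind a library nor the cells in which the genes were deleted, and there is no replicate, so no p-value is given and cells are not treated as replicates. The same rule found 3921 cells in the ASF-KO library and 5138 in the SC35-KO library, which are used only where a pattern of the WT cells was looked for again.

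Beta cells are the endocrine cells that make insulin. Mice carry a pair of insulin genes, whose prohormone is folded in the endoplasmic reticulum, cut by convertases and stored with zinc in dense granules. Glucose enters by the transporter Slc2a2, its metabolism closes ATP-sensitive potassium channels, and the calcium that then flows in releases the granules.

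The WT beta cells were deep, with a median of 22463 UMIs and 3648 genes per cell; 90% of cells lay between 4890 and 41475 UMIs. Their mitochondrial share had a median of 3.10%. Few cells lay near the limits of the rule: 37 cells had an insulin share of 25 to 30% and 24 otherwise passing cells one of 20 to 25%, while 1497 such cells were under 10%. For Gcg, 36 cells lay at 1 to 2% and 40 cells at 2 to 3%. Scrublet, a doublet caller, marked 96 of the beta cells (2.0%), and the rule kept them. The library shared 32 barcodes with the ASF-KO library and 43 with the SC35-KO library, 15 and 23 of them WT beta cells. Free RNA was read from 666 WT cells with endothelial markers, which hold no insulin of their own: insulin made 2.65% of their UMIs, at a median depth of 2963. It made 1.70% in 1138 Gcg-rich (alpha-type) cells and 1.51% in 359 Sst-rich (delta-type) cells, whose median depths were 9802.5 and 7650 UMIs. These classes were all shallower than the beta cells. Comparisons with them below are of shares of UMIs, not of UMIs per cell, and the part of depth was not tested.

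**Figure D1:**
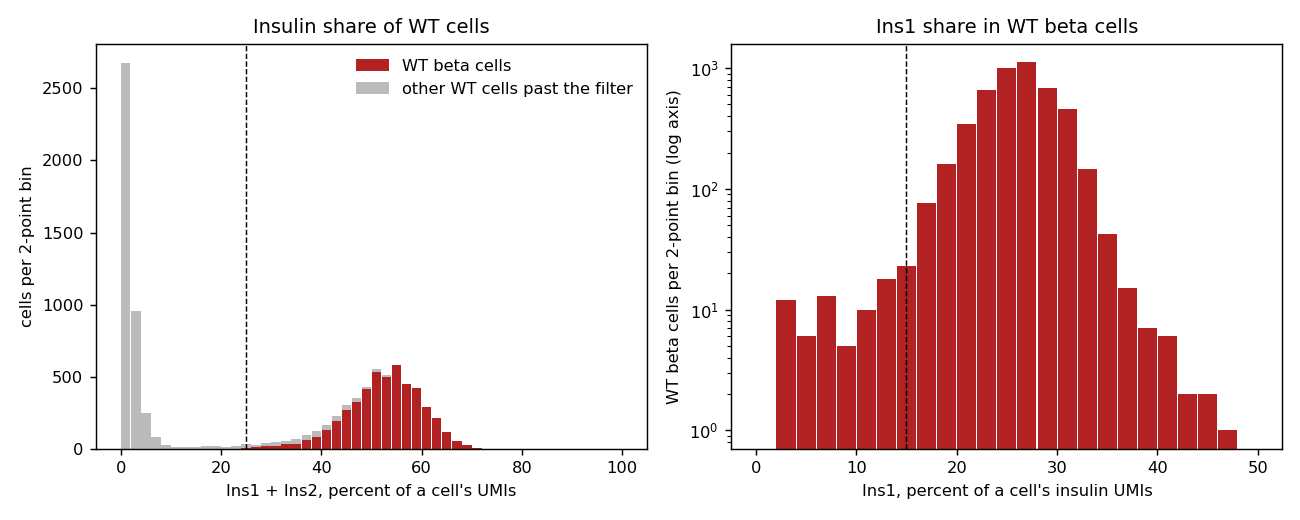
Left, WT cells past the quality limits by the share of their UMIs in Ins1 and Ins2, beta cells in red and other cells in grey, with the 25% limit dashed. Right, number of WT beta cells (log axis) by the Ins1 share of their insulin UMIs, with 15% dashed; the median was 26.2% and 74 cells lay under 15%.

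The label was checked on the 5 marker genes. Insulin was used by the rule, so its level is a description: Ins2 stood at 394934 and Ins1 at 140693 UMIs per 1000000 UMIs of the class (CPM) in the summed cells, and both together made 53.6% of all UMIs. Over single cells the insulin share had a median of 53.1%, with 90% of cells between 39.3 and 63.7%. Iapp, which codes for the peptide amylin that is released with insulin, stood at 45115 CPM against 2157 CPM in Gcg-rich cells and 3443 CPM in endothelial-marker cells. In Sst-rich cells Iapp was also well above the free RNA, at 17421 CPM. Ucn3, a peptide marker of mature beta cells, stood at 315 CPM (311 to 318), against 21.6 CPM in Gcg-rich cells and 30.02 CPM in endothelial-marker cells. Mafa, a transcription factor of mature beta cells, stood at 236 CPM (233 to 239), against 11.6 and 23.7 CPM in the same 2 classes. With every cell thinned to 2000 UMIs, 34.1% of beta cells and 4.01% of endothelial-marker cells had a Mafa UMI; unthinned shares were 86.5% and 7.21%. The 3 markers that the rule did not use thus stood well above the free RNA.

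The marker genes lie apart in the genome. In GRCm38, Ins1 (ENSMUSG00000035804) is on chromosome 19 from 52264297 to 52265476 on the plus strand, and Ins2 (ENSMUSG00000000215) is annotated on chromosome 7 from 142678656 to 142743381 on the minus strand. Iapp (ENSMUSG00000041681) is on chromosome 6 from 142298423 to 142303961, plus strand. Mafa (ENSMUSG00000047591) is on chromosome 15 from 75745490 to 75748228 and Ucn3 (ENSMUSG00000044988) on chromosome 13 from 3940688 to 3945349, both on the minus strand. Promoter sequence of RefSeq (GRCm38.p6) was matched for 3 of the 5 markers. The 250 bases before each start are printed because homeodomain factors such as Pdx1 and Nkx6-1, both among the measured genes, bind the core TAAT, which is in capitals on either strand (TAAT or ATTA).
Ins1, chr19:52264047-52264296, plus strand: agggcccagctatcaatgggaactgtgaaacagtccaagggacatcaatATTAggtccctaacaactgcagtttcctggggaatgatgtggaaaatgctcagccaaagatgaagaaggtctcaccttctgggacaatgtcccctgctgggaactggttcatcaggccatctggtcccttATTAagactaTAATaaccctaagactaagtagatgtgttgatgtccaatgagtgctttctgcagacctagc
Iapp, chr6:142298175-142298424, plus strand: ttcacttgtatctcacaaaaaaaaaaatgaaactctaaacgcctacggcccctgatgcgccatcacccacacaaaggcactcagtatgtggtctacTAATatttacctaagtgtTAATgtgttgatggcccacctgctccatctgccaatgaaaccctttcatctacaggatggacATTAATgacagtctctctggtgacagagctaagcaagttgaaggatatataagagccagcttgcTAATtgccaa
Ucn3, chr13:3945350-3945599, minus strand: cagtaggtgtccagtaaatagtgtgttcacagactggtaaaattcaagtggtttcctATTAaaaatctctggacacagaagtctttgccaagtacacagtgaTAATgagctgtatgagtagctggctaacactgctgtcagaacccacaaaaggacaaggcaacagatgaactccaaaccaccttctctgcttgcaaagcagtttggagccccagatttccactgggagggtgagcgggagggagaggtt
The windows follow the RefSeq starts, which for Iapp lies 2 bases after the start given above. The Ins1 window held 3 matches of TAAT, the Iapp window 5, of which 1 pair overlaps, and the Ucn3 window 2. Of 32851 RefSeq windows of the same length, 54.9% held at least 1, 30.8% at least 2, 17.3% at least 3 and 5.54% at least 5. CANNTG, the E-box bound by factors of the Neurod1 kind, was found 2 times in Ins1, 3 times in Iapp and 2 times in Ucn3, and 31.8% of all windows held it at least 2 times. These are matches of letters and show no binding.

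Few genes took most of the RNA. Ins2, Ins1 and Iapp together made 58.1% of UMIs, the 25 highest genes 65.8% and the 100 highest 70.8%. In the summed cells 6508 genes stood at 10 CPM or more, 616 at 100 or more and 32 at 1000 or more. Since the kit tags each molecule at its 3' end, CPM needs no division by gene length. After the 3 secreted products came Malat1, a nuclear noncoding RNA, at 12143 CPM, and the metallothionein Mt1, which binds zinc and copper, at 5713 CPM (5699 to 5728). The gene model Gm42418, between them, stood at 7794 CPM in beta cells and 51159 CPM in endothelial-marker cells. The next places went to mitochondrially encoded genes, led by mt-Co1 at 5538 CPM, and to Chga at 4048, Scg2 at 2935 and Pcsk2 at 2887 CPM.

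For comparison with another endocrine class of the same library, each gene's CPM in beta cells was divided by that in Gcg-rich cells. This shows where the class stands and is no test, because hormone content chose both classes. Of 8165 genes at 10 CPM or more in either sum, 323 (3.96%) were 2-fold or more higher in beta cells and 1763 (21.6%) 2-fold or more lower, with a median log2 ratio of -0.63. Insulin fills the larger part of a beta cell's UMIs, which lowers the CPM of every other gene. Taken relative to the median gene, 644 (7.89%) were 2-fold or more higher and 611 (7.48%) 2-fold or more lower. Group counts below are relative to that median, while fold values of single genes are of CPM.

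The prohormone processing genes were all measured, with 10 of 10 at 10 CPM or more. Pcsk2, a convertase, led at 2887 CPM against 7667 CPM in Gcg-rich cells, and Cpe, the carboxypeptidase that trims the cut ends, stood at 1372 CPM against 2424 CPM. The inhibitor Pcsk1n stood at 1099 CPM against 4140 CPM. Pcsk1, the other convertase, went the other way, at 126 CPM (124 to 128) against 5.78 CPM. Ero1lb, the beta-cell oxidase that drives disulphide bonding in the endoplasmic reticulum and is listed under its older name, stood at 479 CPM against 81.8 CPM. Relative to the median gene, 2 of the 10 were 2-fold or more higher and 1 was lower. The lowest of the list was the sulfhydryl oxidase Qsox1, at 32.2 CPM.

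Granins and granule proteins were high in both classes. Of 16 listed, 15 stood at 10 CPM or more, with a median of 271 CPM. Chromogranin A (Chga) stood at 4048 CPM against 4508 CPM in Gcg-rich cells and 451 CPM in endothelial-marker cells, and secretogranin 2 (Scg2) at 2935 CPM against 887 CPM in Gcg-rich cells. The zinc transporter of the granule, Slc30a8, stood at 466 CPM against 456 CPM, a ratio of 1.02 (0.993 to 1.05). Sytl4, or granuphilin, which docks insulin granules at the membrane, was the clearest difference, at 90.1 CPM (88.3 to 91.9) against 5.25 CPM. Of the exocytosis list 19 of 23 stood at 10 CPM or more. Its highest member was the synaptotagmin Syt13 at 361 CPM, followed by the complexin Cplx2 at 194 CPM, Syt7 at 170 CPM and the SNARE adaptor Napa at 98.9 CPM. In all, 4 of 21 tested members were 2-fold or more higher relative to the median gene and 1 was lower.

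Several glucose-sensing genes stood higher in beta cells than in Gcg-rich cells. G6pc2, the islet glucose-6-phosphatase, stood at 531 CPM (527 to 535) against 39.0 CPM in Gcg-rich cells and 56.9 CPM in endothelial-marker cells. Slc2a2, the glucose transporter GLUT2, stood at 371 CPM (367 to 374) against 14.8 CPM in Gcg-rich cells, 25.1-fold higher (21.5 to 29.4). Papss2, which makes the sulfate donor, stood at 234 CPM against 36.0 CPM, and pyruvate carboxylase (Pcx) at 36.9 CPM against 6.59 CPM. Cltrn, the collectrin formerly called Tmem27, stood at 230 CPM in beta cells and at 1749 CPM in Gcg-rich cells. In the list 20 of 23 genes stood at 10 CPM or more, 6 of 21 tested were 2-fold or more higher relative to the median gene, and 1 was lower.

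Both subunits of the ATP-sensitive potassium channel were expressed at levels near those of Gcg-rich cells. Abcc8, the sulfonylurea receptor, stood at 247 CPM against 268 CPM, and Kcnj11, the pore, at 35.1 CPM (34.0 to 36.3) against 57.3 CPM. The calcium pumps Atp2a2 and Atp2a3 stood at 531 and 220 CPM in beta cells, against 189 and 87.2 CPM. Trpm5, a cation channel opened by calcium, stood at 81.8 CPM against 3.83 CPM. Kcnk3, a background potassium channel, stood at 3.13 CPM against 174 CPM. Of the 21 listed channels and pumps, 17 stood at 10 CPM or more.

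The receptor list held many higher genes. Of 12 tested members, 8 were 2-fold or more higher relative to the median gene and 2 were lower, and the list's median log2 ratio was 3.04 above that of all genes. Glp1r, the receptor of the incretin GLP-1, stood at 390 CPM (386 to 394) against 23.4 CPM in Gcg-rich cells. Prlr, the prolactin receptor (a cytokine receptor kept in this list), stood at 170 CPM against 5.87 CPM, the highest fold named here at 29.0 (22.8 to 37.5). The fatty acid receptor Ffar1 stood at 101 CPM against 60.3 CPM, and the somatostatin receptor Sstr3 at 89.6 CPM against 84.5 CPM. The adrenergic receptor Adra2a stood at 43.5 CPM against 3.47 CPM and the glucagon receptor Gcgr at 9.15 CPM (8.59 to 9.74) against 0.623 CPM. Ffar4, another fatty acid receptor, stood at 0.822 CPM in beta cells and at 25.9 CPM in Gcg-rich cells.

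Of 28 beta and endocrine transcription factors, 17 stood at 10 CPM or more. Pax6, a factor of all islet cells, was the highest, at 293 CPM against 268 CPM in Gcg-rich cells. Neurod1 stood at 213 CPM against 234 CPM, while Isl1 was lower, at 105 CPM against 250 CPM. Nkx6-1, which keeps beta-cell identity, stood at 211 CPM (208 to 213) against 24.6 CPM, and Pdx1, the regulator of insulin transcription, at 63.0 CPM (61.5 to 64.5) against 4.09 CPM. Pdx1 was no lower in Sst-rich cells, at 79.2 CPM. Mlxipl, the glucose-responsive factor ChREBP, stood at 158 CPM against 15.8 CPM. The lowest member at 10 CPM or more was Rfx3, at 22.1 CPM. None of the 8 listed factors of alpha and delta cells reached 10 CPM; Irx2, a factor of alpha cells, stood at 1.59 CPM against 140 CPM.

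**Figure D2:**
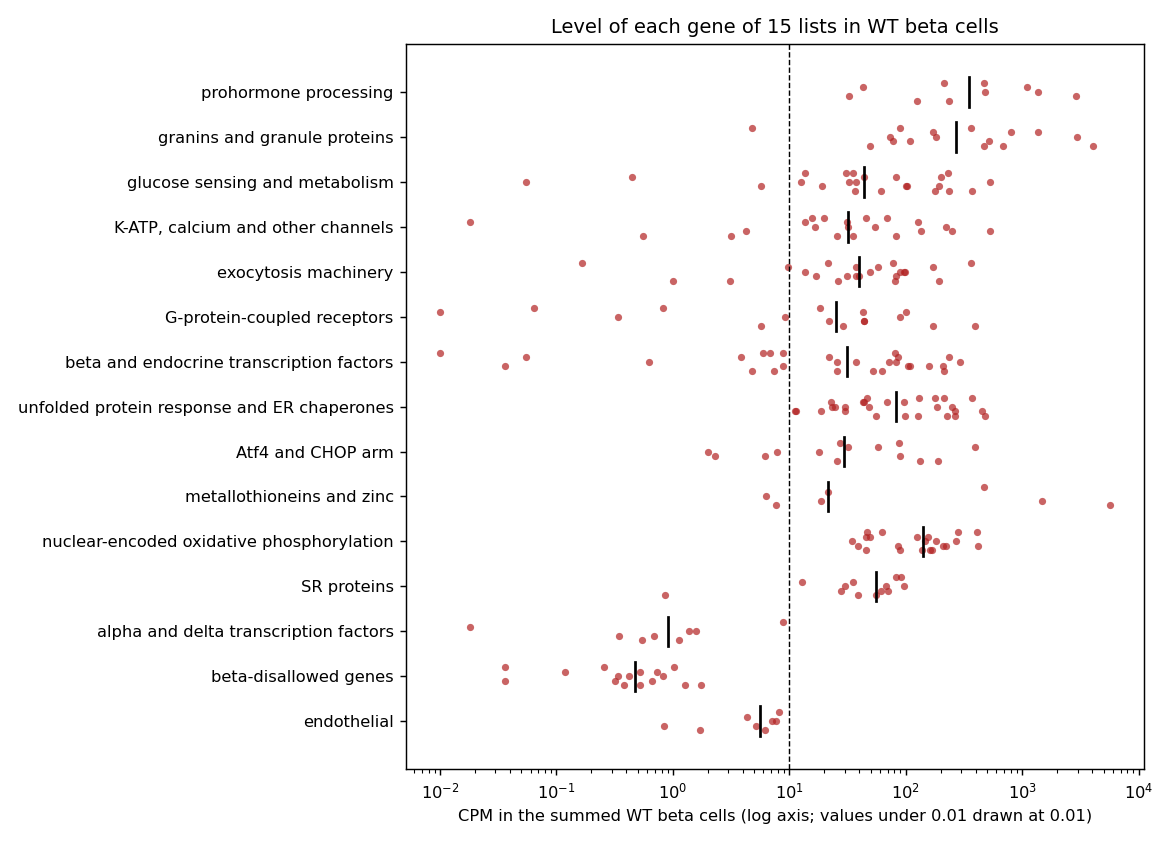
Each point is 1 gene of a list, placed by its CPM in the summed WT beta cells on a log axis; black bars are list medians and the dashed line is 10 CPM. All 28 genes of the endoplasmic reticulum list lie at 10 CPM or more, while the 16 beta-disallowed genes lie between 0.0365 and 1.76 CPM.

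The chaperones and sensors of the endoplasmic reticulum were all present, with 28 of 28 at 10 CPM or more. Hspa5 (BiP) stood at 477 CPM in beta cells and 829 CPM in Gcg-rich cells, followed by Hsp90b1 at 454 CPM against 770 CPM. Of the 28, 3 were 2-fold or more higher relative to the median gene and none was lower. These were Wfs1, a membrane protein of the reticulum, at 48.4 CPM against 13.3 CPM, Sel1l, of the degradation complex, at 98.97 CPM against 48.4 CPM, and Edem1, which helps to clear misfolded proteins, at 24.7 CPM against 10.5 CPM. The Atf4 and CHOP arm, the branch that answers amino acid and folding stress, held larger differences. Nupr1, a small stress-response chromatin protein, stood at 392 CPM (388 to 395) against 23.4 CPM, Atf5 at 190 CPM against 23.05 CPM and Vldlr at 57.3 CPM against 4.89 CPM. Atf4 itself stood at 132 CPM against 120 CPM and Ddit3 (CHOP) at 89.8 CPM against 56.2 CPM, while Atf3 was lower, at 2.28 CPM against 47.8 CPM. In that list 6 of 11 tested were 2-fold or more higher relative to the median gene and 2 were lower.

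Metallothioneins were among the most abundant RNAs. Mt2 stood at 1486 CPM against 314 CPM in Gcg-rich cells, and Mt1 at 5713 CPM against 1089 CPM. The cytosolic ribosomal protein genes were the opposite, since 18 of 22 were 2-fold or more lower relative to the median gene; Rps29 stood at 1828 CPM against 6876 CPM and the lowest, Rpl4, at 215 CPM against 702 CPM. None of the 22 nuclear-encoded oxidative phosphorylation genes was 2-fold lower relative to the median and 1 was higher. Cox8a led these at 416 CPM against 664 CPM. None of the 12 tested SR protein genes moved 2-fold relative to the median; Srsf1, the gene deleted in ASF-KO mice, stood at 38.7 CPM (37.5 to 39.9) and Srsf2, deleted in SC35-KO mice, at 28.0 CPM (27.0 to 29.0) in WT beta cells.

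Immediate early genes, which switch on within minutes of a stimulus, were lower in beta cells than in Gcg-rich cells. Of 13 tested, 11 were 2-fold or more lower relative to the median gene and none was higher. Egr1 stood at 198 CPM against 607 CPM in Gcg-rich and 440 CPM in endothelial-marker cells, Fos at 140 CPM against 678 and 680 CPM, and Jun at 170 CPM against 838 and 2137 CPM. The heat shock genes Hspa1a and Hspa1b stood at 139 and 143 CPM against 688 and 652 CPM in Gcg-rich cells.

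Genes that beta cells are known to keep silent were near 0. All 16 listed beta-disallowed genes stood under 10 CPM. Ldha, lactate dehydrogenase, stood at 1.27 CPM (1.07 to 1.499) against 211 CPM in endothelial-marker cells, and the lactate carrier Slc16a1 had 4 UMIs in all 4791 cells, or 0.0365 CPM. Oat, ornithine aminotransferase, stood at 0.658 CPM against 46.3 CPM in Gcg-rich cells. Of 12 genes tied to dedifferentiation and progenitors, Cd81, a membrane tetraspanin, was the one member at 10 CPM or more, at 57.6 CPM. Aldh1a3, an enzyme marker of dedifferentiated beta cells, stood at 2.08 CPM (1.82 to 2.37) and Neurog3, the endocrine progenitor factor, at 1.39 CPM. The proliferation gene Mki67 stood at 2.58 CPM, and Cdkn2a, which rises with age in islets, at 1.30 CPM (1.09 to 1.53), against 26.4 and 2.24 CPM in endothelial-marker cells. Igf1r, a receptor used as an age marker of beta cells, stood at 98.0 CPM against 43.4 CPM in Gcg-rich cells.

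None of the 8 endothelial markers reached 10 CPM in beta cells, and Plvap stood at 7.63 CPM against 3953 CPM in endothelial-marker cells. Of 25 exocrine genes 16 stood at 10 CPM or more; the highest, Ctrb1 (chymotrypsinogen), stood at 91.0 CPM in beta cells, 128 CPM in Gcg-rich cells and 270 CPM in endothelial-marker cells. The rule held Gcg, Sst and Ppy each under 2% of UMIs, and endothelial-marker cells had the same limit. The levels of these hormones are thus a description. In CPM, Gcg, Ppy and Sst were lower in beta cells than in endothelial-marker cells. Gcg stood at 847 against 1385 CPM, Ppy at 711 against 1075 CPM and Sst at 343 against 466 CPM. Insulin made 53.6% of UMIs in beta cells and 2.65% in endothelial-marker cells, which lowers the CPM of other genes in beta cells. Over UMIs outside insulin the order of these hormones is reversed. Pyy, the hormone peptide YY, stood at 740 against 710 CPM. The stroma list had 0 of 8 genes at 10 CPM or more, the macrophage list 1 of 7 and the lymphocyte list 2 of 8. The ductal list had 5 of 8, among them the epithelial genes Krt18 at 86.5 CPM, against 151 CPM in Gcg-rich and 14.8 CPM in endothelial-marker cells, and Epcam at 81.9 CPM, against 192 and 13.9 CPM. The alpha list had 8 of 12, with the carrier protein Ttr at 730 CPM against 31167 CPM in Gcg-rich cells and 269 CPM in endothelial-marker cells.

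By the ratio to Gcg-rich cells, 15 genes each way were named. Besides Prlr, Slc2a2, Iapp, Mafa, Pcsk1, Trpm5, Nupr1 and Glp1r, the higher genes were Sh3pxd2a, Enho, Hadh, Cib3, Itpkb, Frzb and Tmem215. Hadh, an enzyme of fatty acid oxidation, stood at 333 CPM against 20.7 CPM in Gcg-rich cells, but at 368 CPM in Sst-rich cells. Enho, which codes for the peptide adropin, stood at 206 CPM against 11.5 CPM and at 208 CPM in Sst-rich cells; Frzb, a secreted Wnt inhibitor, stood at 116 CPM against 6.59 CPM and at 251 CPM in Sst-rich cells. Mafa, by contrast, stood at 10.5 CPM and Slc2a2 at 15.98 CPM in Sst-rich cells. Among the lower genes were Pdk4, Edn3, Irx1, Slc38a5, Higd1a, Adamts18, Ndst4, Basp1, Vwde, Rcn3, Irx2 and Eef1a2. Pdk4, the kinase that shuts off pyruvate dehydrogenase, stood at 0.566 CPM against 133 CPM, a ratio of 0.00425 (0.00324 to 0.00548), and Higd1a, a mitochondrial protein induced by hypoxia, at 1.55 CPM against 203 CPM. The amino acid carrier Slc38a5 stood at 0.429 CPM against 64.7 CPM.

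The spread between cells was measured after each cell was thinned to 4000 UMIs outside Ins1 and Ins2, which kept 4394 cells and left out 397. The measure is the excess squared coefficient of variation (CV), the variance beyond counting divided by the squared mean, which is near 0 for a gene that differs between cells by sampling alone. Over 3425 genes with a mean of at least 0.2 UMIs the median was 0.0833; 1944 genes (56.8%) were under 0.1 and 102 (2.98%) reached 0.5. Most genes were thus close to even over the beta cells. Among genes with a mean of at least 5 UMIs the most even was the elongation factor Eef1a1, at 0.0265, followed by the convertase Pcsk2 at 0.0312. Pcsk2 had a median of 25 thinned UMIs per cell, with 90% of cells between 15 and 36.

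Identity and secretory genes covered a wide part of this range, in which 75% of genes were at or under 0.151. Iapp had an excess of 0.0512, Scg2 of 0.0663, Pdx1 of 0.106, Nkx6-1 of 0.188, Ucn3 of 0.189, G6pc2 of 0.226 and Slc2a2 of 0.308. None of 17 measured glucose-sensing genes, 22 oxidative phosphorylation genes, 22 ribosomal protein genes, 11 SR protein genes or 23 endoplasmic reticulum genes reached 0.5. Among 16 measured transcription factors Mafa alone did, at 0.571. Gad1, which makes the transmitter GABA, reached 0.788, and Txnip, a glucose-induced inhibitor of thioredoxin, 0.698. Stress-linked genes were less even: 8 of 9 measured immediate early genes reached 0.5, with Fos at 1.77 and Jun at 1.69, as did 4 of 11 heat shock genes and 3 of 9 genes of the Atf4 and CHOP arm, led by Nupr1 at 1.33. Cdkn1a, the cell cycle inhibitor p21, stood at 1.82 and Mt1 at 0.299.

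**Figure D3:**
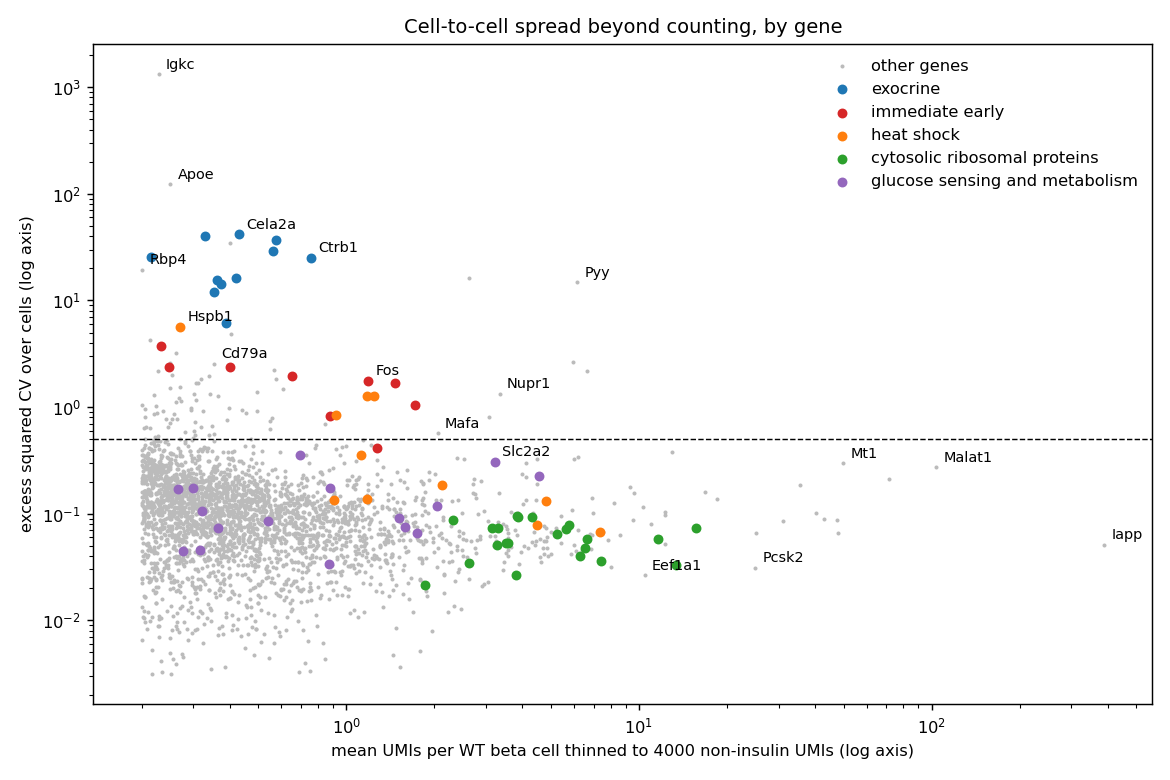
Each point is a gene, by its mean UMIs per thinned WT beta cell and its excess squared CV over cells, both on log axes; 5 gene lists are coloured, the dashed line is 0.5, and genes under 0.003 are not drawn. Exocrine and immediate early genes lie high, ribosomal protein genes low, and Iapp lies at 0.0512 despite its high mean.

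The 25 least even genes were Igkc, Apoe, Cela2a, Try5, Try4, Prss2, Cpb1, Ctrb1, Rbp4, Cela3b, Cpa1, Pyy, Pnlip, Cela1, Clps, Hspb1, Bc1, Hist1h2ap, Gpx3, Ier2, Cox6a2, Gsn, Cd79a, Junb and Dusp1. Of these, 11 are exocrine enzymes or their cofactors, and these moved together: Cela2a, an elastase, and Try4, a trypsin, had a correlation of 0.59 over the 4394 cells, which all share 1 library. In 38 cells the exocrine list made 1% or more of UMIs, and Scrublet marked none of these. Without those cells and the marked ones, the excess of Cela2a was 4.24 against 42.0 with them, and that of Ctrb1 was 1.08 against 25.1. Igkc, an antibody light chain, had the highest value, 1329, and 1 cell held 75.2% of its UMIs; its level was 11.8 CPM without that cell and 47.5 CPM with it. For Apoe, a lipid carrier of macrophages, 10 cells held 50.5% of the UMIs.

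Among the uneven genes outside the exocrine list, Hspb1, a small heat shock protein, had a UMI in 16.6% of thinned cells, Bc1, a short noncoding RNA, in 20.005%, Cd79a in 21.6% and Cox6a2, a subunit of cytochrome oxidase, in 17.8%. Pyy had a UMI in 93.8% of thinned cells with a median of 3, but the 1% of cells with the most held 33.2% of its UMIs and the highest cell had 559 of 4000. Its correlation was 0.38 with Rbp4, a retinol carrier made by delta cells, and 0.36 with Ppy, which the rule limited.

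Several immediate early genes varied together, and in part with heat shock genes. Fos and Jun had a correlation of 0.48 over cells, Fos and Egr1 0.46, Fos and Fosb 0.44 and Hspa1a and Hspa1b 0.34, and the summed lists of immediate early and heat shock genes had one of 0.40. The summed immediate early list had a median of 6 thinned UMIs per cell, with 90% of cells between 1 and 26. Mt1 and Mt2 had a correlation of 0.79. The summed list of 7 metallothionein and zinc genes ranged from 19 to 131 thinned UMIs between the 5th and the 95th percentile. Its median was 63. The noncoding RNA Malat1 had correlations of 0.36 with Peg3, 0.33 with Meg3 and -0.31 with Iapp. Thinned cells share a fixed total of UMIs; its part in these values was not tested.

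**Figure D4:**
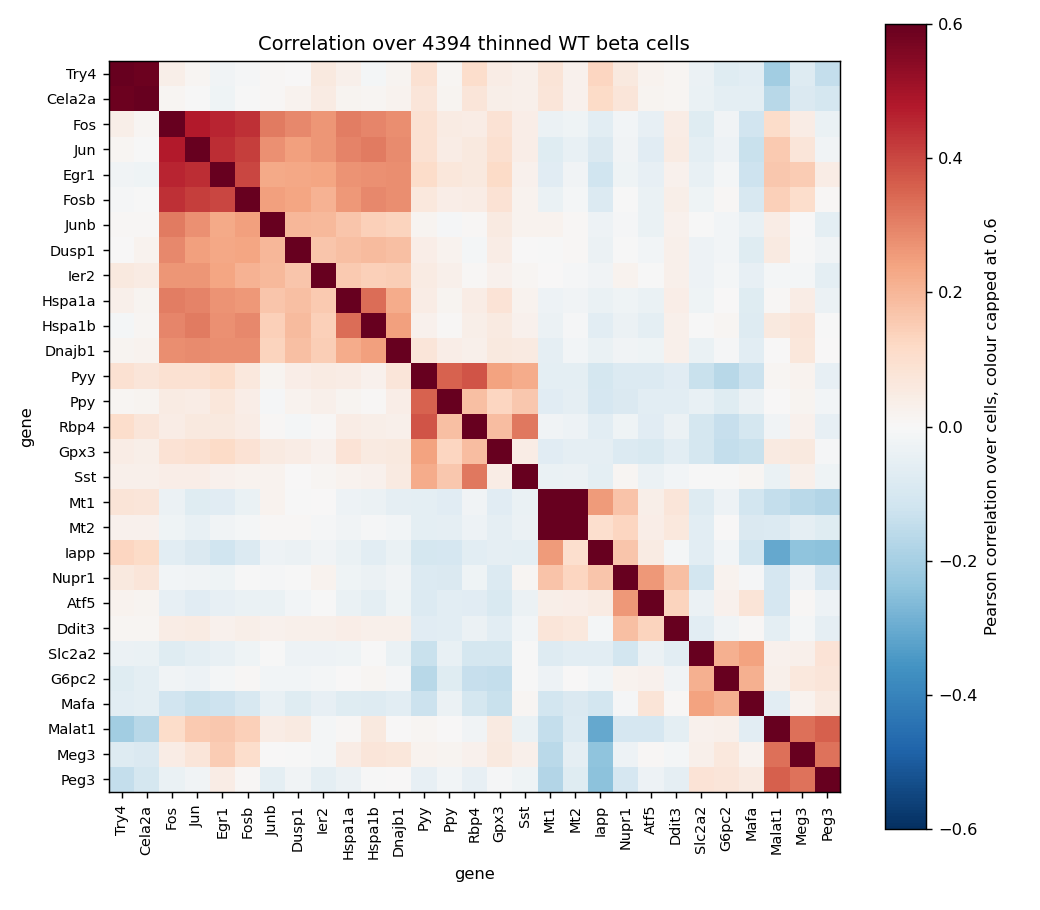
Pearson correlation of log2(thinned UMIs + 1) between 29 chosen genes over 4394 WT beta cells, with colours capped at 0.6 in either direction. Fos, Jun, Egr1 and Fosb stand out in red, with Fos and Jun at 0.48, as do Mt1 and Mt2 at 0.79; Junb, Dusp1 and Ier2 are paler against the heat shock genes, with Dusp1 and Hspa1b at 0.19.

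The cells were then set in order by their insulin share, with levels given as CPM of the UMIs outside Ins1 and Ins2 (non-insulin CPM). The 5 ranges of 25 to 40, 40 to 50, 50 to 60, 60 to 70 and 70% or more held 269, 1332, 2482, 696 and 12 cells. Cells of a higher share were deeper, with median UMIs of 15266, 20026.5, 23637, 26081.5 and 32086.5, and Scrublet marked 7.43, 2.63, 1.45, 0.718 and 0% of them. Iapp stood at 75705, 86563, 99811, 115702 and 127892 non-insulin CPM over the ranges. Ssr4, a subunit of the complex through which proteins enter the endoplasmic reticulum, stood at 452, 474, 572, 800 and 1043, and Trpm5 at 95.2, 152, 183, 228 and 305. Both had their lowest level in the lowest range and their highest in the highest.

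Other genes ran the other way with the insulin share. Kcnq1ot1, a long noncoding RNA of an imprinted locus, stood at 369, 380, 293, 201 and 78.7 non-insulin CPM over the same ranges, Egr1 at 591, 509, 394, 321 and 305, and Pyy at 7344, 1764, 1163, 775 and 718. The other hormones were also highest in the first range, with Sst at 1613, 774, 729, 385 and 463, Ppy at 3155, 1574, 1425, 1246 and 1083 and Gcg at 2594, 1867, 1833, 1434 and 1457. The rule used insulin, Sst, Ppy and Gcg, so the levels of these hormones over the ranges are a description and no finding. Hspa5 stood at 1222, 1127, 993, 888 and 768. Mafa and Slc2a2 were lowest in the first range, at 296 and 483 non-insulin CPM, and did not follow the order above it; Mafa stood at 486, 541, 503.6 and 344 in the next 4 ranges. Each range holds cells of 1 library, and depth moves with the share; its part in these levels was not tested.

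The 2 insulin genes were set against each other, since the rule used their sum and not their ratio. Ins1 made 26.3% of the insulin UMIs (26.26 to 26.28), and in the Gcg-rich, Sst-rich and endothelial-marker cells it made 25.2, 25.8 and 25.1% of the insulin found there. Over beta cells the Ins1 share had a standard deviation of 4.25 percentage points, against 0.508 points from sampling alone. The UMIs of both genes had a correlation of 0.93 on a log2 scale, and no cell had more Ins1 than Ins2. The distribution had a tail on its low side: 36 cells were under 10% and 11 cells over 40%, with the lowest at 2.51% and the highest at 47.3%.

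The 74 beta cells with an Ins1 share under 15%, or 1.54% of the class (1.21 to 1.94%), were compared with the 3789 cells at 20 to 30%. Both ranges and the comparison were chosen after the values had been seen. The low-Ins1 cells were shallower, with a median of 14795.5 against 22867 UMIs, and had a median insulin share of 38.0% against 53.3%. In the range of 25 to 40% insulin described above, Ins1 made 21.8% of the insulin UMIs. Mafa stood at 296, Slc2a2 at 483 and Pyy at 7344 non-insulin CPM in that range. The Ins1 share and the insulin share thus overlap, and their parts in the levels below were not tested. Scrublet marked 2 of the 74 (2.70%) and 1.85% of the others. A further 23 cells lay within 1 point of the 15% limit. Of 3587 genes at 50 non-insulin CPM or more in either group, 47 (1.31%) were 2-fold or more higher in low-Ins1 cells. Another 41 (1.14%) were 2-fold or more lower, and the median log2 ratio was -0.04. The 15 higher genes named below had to reach 50 in low-Ins1 cells, and the 15 lower ones 50 in the others. Many passed only through the group where they were high, such as Prss23 (78.6 against 5.63) and Gad1 (28.2 against 153). Their ratios in WT cells are thus a description.

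Low-Ins1 cells held less RNA of several genes of mature beta cells and glucose sensing. Mafa stood at 104 non-insulin CPM in low-Ins1 cells (70 UMIs) against 526 in the others, a ratio of 0.198 (0.154 to 0.2497). Slc2a2 stood at 257 against 812, a ratio of 0.316 (0.271 to 0.367), G6pc2 at 374 against 1145 and Ucn3 at 325 against 691. Trpm5 stood at 38.6 against 182, Gad1 at 28.2 against 153 and the granule protein Sytl4 at 60.8 against 198. Slc30a8 stood at 396 against 1021, Papss2 at 218 against 508, Glp1r at 444 against 841 and Pdx1 at 81.6 against 137. Some beta-cell genes differed less: Nkx6-1 stood at 346 against 453, Pax6 at 545 against 629, Iapp at 81165 against 97735 and Pcsk2 at 5995 against 6192. Of the 15 lower genes by the bound of the interval nearest to 1, the others were Igkc, Tmem215, Rims3, Maob, Spc25, Dlgap1, Chac1, Prss53 and Apoe. The Igkc value rests on the 1 cell named above.

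Among the 15 higher genes were Pyy, Prss23, Hist3h2ba, Fxyd3, Rbp4, Tspan8, Calb1, Gpx3, Mef2c, Folr1, Ocrl, Sult1d1 and Anpep. Pyy stood at 18130 non-insulin CPM in low-Ins1 cells and 1326 in the others, 13.7-fold higher (13.4 to 13.9). Rbp4 stood at 266 against 46.3. Gpx3, a secreted glutathione peroxidase, stood at 263 against 49.9 and the folate receptor Folr1 at 224 against 51.1. Among genes outside the 15, Cd81 stood at 301 against 122, Chga at 15740 against 8544, Ppy at 5910 against 1474 and Aldh1a3 at 22.3 (15 UMIs) against 3.66. Gcg was lower, at 1196 against 1874.

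The pattern was graded over the Ins1 share for several genes. In the ranges under 15, 15 to 20, 20 to 25, 25 to 30 and 30% or more, with 74, 250, 1458, 2331 and 678 cells, Pyy stood at 18130, 3563, 1483, 1233 and 1002 non-insulin CPM. Mafa stood at 104, 305, 511, 534 and 498, Slc2a2 at 257, 514, 755, 846 and 849 and G6pc2 at 374, 805, 1018, 1219 and 1307. Cd81 stood at 301, 184, 144, 109 and 98.6. Mafa, Slc2a2 and G6pc2 were lowest in the first range, while Pyy and Cd81 were highest there.

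**Figure D5:**
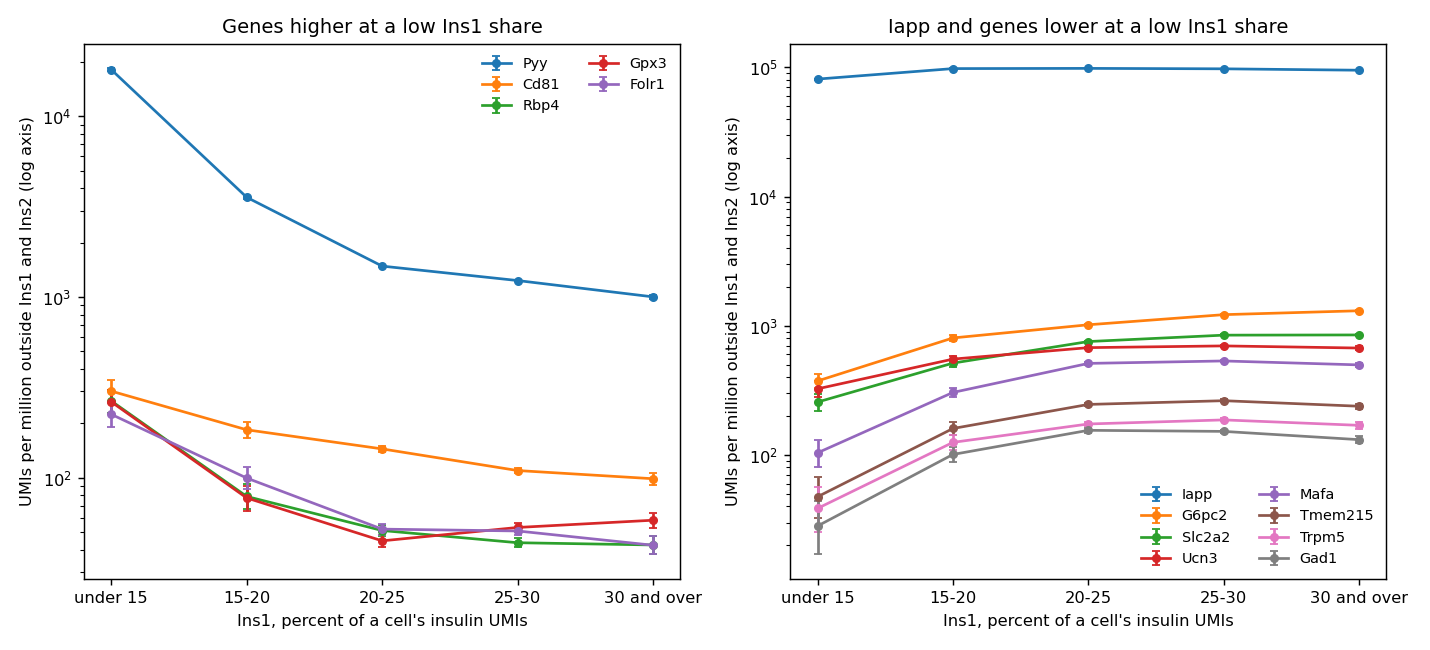
Non-insulin CPM of named genes in WT beta cells in 5 ranges of the Ins1 share, on log axes; bars are exact 95% Poisson intervals. Pyy, at 18130 in the lowest range and 1002 in the highest, and the other genes of the left panel are highest at a low Ins1 share; Mafa, at 104 and 498, and its neighbours on the right are lowest there, while Iapp differs little.

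Cells rich in Pyy made part of the low-Ins1 cells. At 5000 non-insulin CPM or more of Pyy there were 195 beta cells, 29 of them under 15% Ins1, and their median Ins1 share was 24.6%. Without all Pyy-rich cells, 45 low-Ins1 cells remained, and the ratio of Pyy itself was 1.60. The ratio of Mafa was then 0.310, that of Slc2a2 0.380, that of Rbp4 5.68 and that of Gpx3 4.33. The ratio of Sst, the delta-cell hormone, was 1.17 with all cells (887 against 758 non-insulin CPM) and 2.62 without Pyy-rich cells, and that of Ppy was 4.01 and 1.93. Over the thinned beta cells Rbp4 and Sst had a correlation of 0.32. Sst and Ppy were limited by the rule, so their values here are a description and no finding. The part of other endocrine cells or their RNA in the low-Ins1 cells was not tested. In cells of at least 10000 UMIs the Mafa ratio was 0.206 and the Slc2a2 ratio 0.318.

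The other 2 libraries, which had no part in choosing the genes, were read for the same genes. Cells under 15% Ins1 made 174 of 3921 (4.44%, 3.81 to 5.13%) in the ASF-KO library, 309 of 5138 (6.01%, 5.38 to 6.70%) in the SC35-KO library and 74 of 4791 (1.54%, 1.21 to 1.94%) in the WT library. With 1 library each, genotype and library cannot be told apart. The low-Ins1 cells were shallower than those at 20 to 30% in each library. Median UMIs were 17287 against 27621 in ASF-KO and 13577 against 17754 in SC35-KO. Their median insulin share was also lower, at 51.6 against 64.2% in ASF-KO and 52.5 against 63.6% in SC35-KO. The parts of depth and of the insulin share were not tested. Of the 15 genes higher in WT low-Ins1 cells, 15 were also higher and 14 were 2-fold or more higher in the ASF-KO library, where 1.23% of all genes were, and 15 and 14 in the SC35-KO library, where 0.749% of all genes were. Of the 15 lower genes, 14 were lower and 13 were 2-fold or more lower in the ASF-KO library (1.34% of all genes), and 13 and 12 in the SC35-KO library (0.629% of all genes). The exceptions were Igkc in both and Apoe in the SC35-KO library, with a ratio of 6.23. Mafa stood at 80.1 non-insulin CPM in low-Ins1 cells against 640 in the others in the ASF-KO library, and at 96.4 against 421 in the SC35-KO library. Slc2a2 stood at 110 against 431 and at 193 against 527 in the same libraries.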

How the data were processed

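The deposited files hold UMI counts per gene and barcode as whole numbers, with no normalization, for 32285 genes in 3 libraries. Per the labels' protocols the kit was Chromium Single Cell 3' v3; of tools, Seurat, STAR and Cell Ranger 5.0.0 are listed in the submitters' processing notes, and mm10 as the build. The authors' counts were read with python 3.11.15, numpy 2.4.6 and scipy 1.17.1, and figures drawn with matplotlib 3.10.9.

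Cells were chosen by the rule in the opening, which reads insulin, Gcg, Sst and Ppy. The members, the 37 gene lists and the rules for naming genes were chosen with earlier results of these data known. Named were the 25 highest genes, the leading and lowest members of each list, the 25 least even genes (without rule, sex-linked and unnamed genes) and 15 genes each way against Gcg-rich cells. Gcg-rich and Sst-rich cells had 5% or more of UMIs in that hormone and under 25% insulin; endothelial-marker cells had at least 5 UMIs and 0.3% of UMIs over 8 markers. UMIs were summed per class, with 109493574 in WT beta cells, and scaled to 1000000 (CPM). Sums carry exact Poisson, shares exact binomial (Clopper-Pearson) and ratios exact conditional binomial intervals. UMIs from PCR-amplified libraries of unknown mouse number limit these to counting error. Correlations are Pearson's on log2(thinned UMIs + 1) and carry no p-value. Doublets were marked with Scrublet in scanpy 1.11.5. Of 493 listed genes 1 was not matched. Spread and ratios were tested on simulated counts. Alternatives covered the limits of the rule, doublets, exocrine-rich cells, scaling, minimum level and thinning depth. Some genes that these rules select are not reported here.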

Additional observations from a re-analysis of the deposited data

How the results depend on the processing

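No paired analysis was possible because each genotype has 1 library. The class size, the count of genes at 10 CPM, the Gcg-rich counts and the count of uneven genes stayed within 1.5 times under each change to the rule's limits and without marked or exocrine-rich cells; class sizes were 4522 to 5032. The least even genes stayed at 0.5 or more wherever they were measured. Of the 25, however, only 10 were measured at 2000 thinned UMIs, 14 at 5000 UMIs of all genes and 4 with a mean of at least 0.5. The insulin share was 53.4 and 54.3% with a limit of 15 and 40% insulin, 53.7 and 53.0% with other hormones under 1 and 5%, 53.6% from 5000 UMIs, 53.7% without marked cells and 53.6% without exocrine-rich cells. The Ins1 share was 26.3 and 26.4% with a limit of 15 and 40% insulin and 26.3 and 26.2% with other hormones under 1 and 5%. Scaling to UMIs outside Ins1, Ins2, Gcg and mitochondrial genes gave 1252 genes higher and 546 lower than in Gcg-rich cells, against 323 and 1763, and turned the balance. A minimum of 50 CPM gave 95 and 607. The set of genes tested was drawn anew at each setting, so these counts are not of the same genes. Uneven genes numbered 43 at 2000 thinned UMIs, 252 at 8000, 61 at 5000 UMIs of all genes and 26 with a mean of at least 0.5, of 1600, 5930, 1998 and 1216 genes measured. The low-Ins1 cells numbered 45 without Pyy-rich cells, and Apoe, lower in them, had a ratio of 1.94 with a limit of 18% in place of 15%; the cause was not tested. At that limit 29 of 30 named genes kept their direction, but 28 ratios moved beyond their intervals: Mafa stood at 0.343 against 0.198 at 15%, Gad1 at 0.357 against 0.184, Trpm5 at 0.400 against 0.212 and Slc2a2 at 0.470 against 0.316. The Ins1 ranges and their alternatives were chosen after seeing the data. With 1 library, no value carries an error between mice. For genes with few UMIs at or under their level in endothelial-marker cells, free RNA and expression cannot be told apart here.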

Other observations

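Some genes known as markers of other cell types were found in beta cells without some other markers of those types. C1qa, a complement chain of macrophages, stood at 33.01 CPM (31.9 to 34.1) in WT beta cells, 60.2 CPM in Gcg-rich cells, 109 CPM in Sst-rich cells and 37.2 CPM in endothelial-marker cells, while its partner chains C1qb and C1qc stood at 2.35 and 1.47 CPM in beta cells. A C1qa UMI was found in 5.64% of beta cells and 1.46% of endothelial-marker cells thinned to 2000 UMIs, and in 42.1% and 2.40% unthinned; a C1qb UMI was found in 0.252% and 0.912% of thinned cells. Cd79a, a chain of the B-cell receptor, stood at 40.1 CPM (39.0 to 41.3) in beta cells against 4.72 CPM in Gcg-rich cells, 3.63 CPM in Sst-rich cells and 16.1 CPM in endothelial-marker cells, with Cd79b at 0.603 CPM. Its 10 highest cells held 2.91% of its UMIs; the 10 highest of Igkc held 79.2%. Krt7, a keratin of ducts, stood at 111 CPM against 101.7 CPM in Gcg-rich and 14.8 CPM in endothelial-marker cells. Krt19, another duct keratin, stood at 1.02 CPM and the duct factor Sox9 at 0.475 CPM. Krt8 and Krt18, also keratins, were present in beta cells, at 55.7 and 86.5 CPM.

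Among the islet autoantigens, Gad1 stood at 68.1 CPM (66.5 to 69.6) and Gad2 had 2 UMIs in all beta cells. The antigen-presenting genes H2-K1 and B2m stood at 177 and 36.2 CPM in beta cells, against 287 and 61.9 CPM in Gcg-rich cells and 1095 and 1790 CPM in endothelial-marker cells. H2-K1 was even over beta cells, with an excess squared CV of 0.101, while B2m had 1.33.

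The count of uneven genes was close in the other libraries by the same rule and thinning, with 104 of 3330 genes in the ASF-KO library, 108 of 3236 in the SC35-KO library and 102 of 3425 in the WT library. Fos was less uneven in cells of the ASF-KO library, at 0.785, and of the SC35-KO library, at 1.28, than in WT cells, at 1.77. Mafa stood at 0.608, 0.928 and 0.571 in the same order. No difference between libraries could be tested.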
